A study of Rattus norvegicus with 2 samples.

Results

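The TGF-beta, BMP and Smad genes were taken as every row of the deposited gene table whose symbol begins with Tgfb, Bmp and a digit, Bmpr, Smad and a digit, Inhb, Acvr or Gdf and a digit, or is *Id1*, *Id2*, *Id3* or *Id4*. This name rule found 58 of 32662 rows, with 57 different symbols because *Tgfbr1* is listed at 2 loci. They comprise 27 ligand genes, 14 receptor rows, 8 Smads, 4 Id genes and 5 genes that share only the start of the symbol. The table gives FPKM, a read number scaled to transcript length and to sequencing depth, for 2 rRNA-depleted libraries of total RNA from whole retina of Long-Evans rats aged 2 months. CTRL is a sample taken after a sham procedure, and IR12 is a sample collected 12 hours after reperfusion in the model of ischemia-reperfusion (IR) injury, in which blood flow to the eye is stopped and then restored. Each condition has 1 library, so no difference below has a replicate error or a test, and a difference between the samples cannot be told apart from the injury.

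TGF-beta ligands, activins, BMPs and GDFs are secreted dimers that bind a pair of type II and a pair of type I receptor kinases. The type I receptor phosphorylates Smad proteins, Smad2 and Smad3 for TGF-beta and activin and Smad1, Smad5 and Smad9 for BMP, which join Smad4 and enter the nucleus. Id genes are direct targets of the BMP branch and encode proteins that block basic helix-loop-helix transcription factors. In the eye, BMPs pattern the early retina and lens, TGF-beta2 is the main TGF-beta isoform, and the pathway is known for its role in glial scarring after injury.

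Both libraries carried the markers of retina. The rod marker list (7 of 7 genes detected) had a summed FPKM of 8752 in CTRL against 11151 in IR12, with 4 genes higher and 3 lower. *Gnat1*, rod transducin, was most abundant in CTRL, with 4027 and 4237. *Sag*, rod arrestin, was most abundant in IR12, with 2482 and 4703. Other cell types did not have equal marker levels in the libraries, which touches every result below. All 8 Müller glia markers were lower in IR12, with a summed FPKM of 1511 in CTRL against 354 in IR12. Their most abundant gene was *Glul*, glutamine synthetase, with 754 and 126. All 11 lens markers were also lower in IR12, with a summed FPKM of 3506 in CTRL against 413 in IR12, so the library labelled CTRL held far more lens transcript. *Cryba1*, a lens crystallin, led this list with 1614 and 196. Of the 11 leukocyte markers, 9 were higher in IR12, with a summed FPKM of 12.0 in CTRL against 127 in IR12, led by *Lyz2* with 9.73 and 76.9. *S100a8*, *Ccr2*, *Mpo* and *Cd3e* were listed at 0 in CTRL, and *Mpo* also in IR12. All 6 amacrine and all 6 cone markers were lower in IR12 too as deposited, by less than the TPM scale described below adds to IR12 for both sums, with summed FPKM of 403 and 259 (led by *Pax6*) and of 415 and 279 (led by *Gnat2*). Of 6 pericyte markers 5 were lower, with summed FPKM of 48.3 and 24.2 (led by *Rgs5*). The 4 astrocyte markers summed to 28.8 and 27.8, 2 higher and 2 lower, led in CTRL by *S100b* with 25.8 and 5.81, while *Gfap*, a marker of reactive glia, had 2.95 and 21.9. *Pax2* of this list was at 0 in CTRL. No marker of the rod, Müller glia, lens, amacrine, cone or pericyte lists was at 0. The sums of ganglion cell markers (387 and 307, led by *Nefl*, 8 of 10 lower), bipolar cell markers (537 and 412, led by *Trpm1*, 5 of 7 lower, *Otx2* at 0 in both) and horizontal cell markers (77.0 and 45.2, led by *Calb1*, 3 of 4 lower) were lower too as deposited, and that of blood markers was higher (28.4 and 52.7, led by *Hbb*, 2 of 5 higher). For the ganglion and bipolar sums the gap was again less than the TPM scale adds to IR12. The part of these cell types in the differences below was not tested. In such bulk samples, fewer cells of a type and less RNA per cell cannot be told apart.

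**Figure D1:**
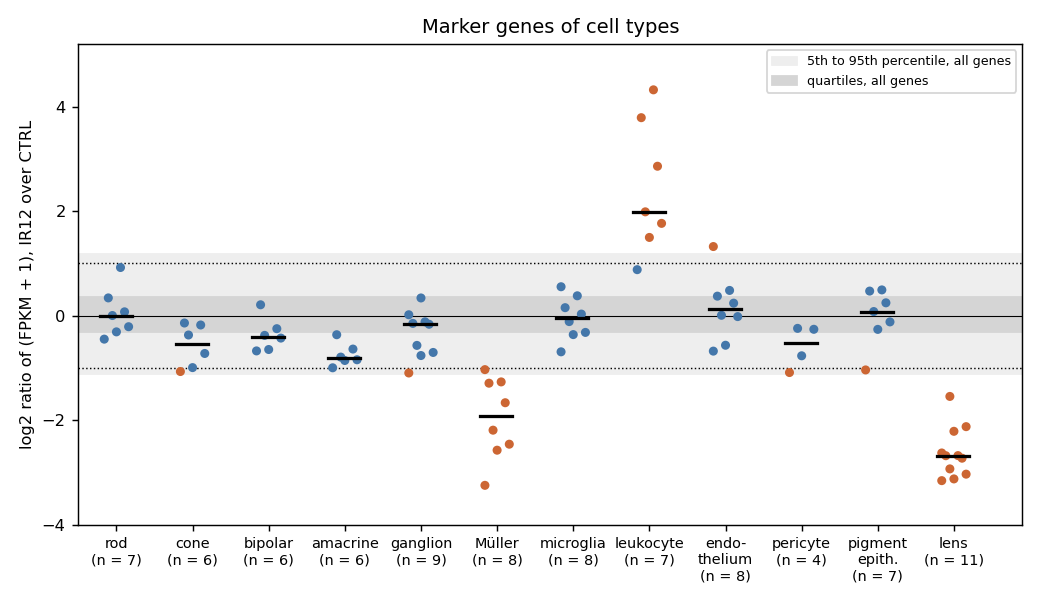
Log2 ratio of (FPKM + 1), IR12 over CTRL, of detected marker genes by cell type (orange for at least 2-fold, blue for less, black bar for the median, grey bands for all genes). The Müller glia and lens markers all lie below -1. Of the 7 leukocyte markers shown, 6 passed the level only through IR12 and so had to lie above 0.

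An FPKM of 1 rested on about 12.1 reads per kilobase of transcript in CTRL and 20.6 in IR12. These values were read from 1034 olfactory receptor loci close to 1 kilobase long, whose low FPKM moved in steps of single reads (40 of 40 values under 11 reads in CTRL and 116 of 116 in IR12 were within 0.05 of a whole read). The same FPKM therefore has a smaller counting error in IR12. Each difference is a log2 ratio with 1 added to both FPKM values and CTRL as the base, so differences of low genes come out too small. Of the 58 rows, 37 had an FPKM of at least 1 in at least 1 library, 30 of them in both, 5 in CTRL only and 2 in IR12 only. The other 21 rows were below this level, and 8 of them were listed at 0 in both libraries. A value of 0 is no proof of silence, since all 37 mitochondrial genes are listed at 0 in both libraries.

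Among the 37 detected rows, 4 were at least 2-fold lower in IR12, namely *Bmpr1b*, *Id3*, *Inhba* and *Id2*, and 0 were at least 2-fold higher. Of all 13599 genes that pass the same level, 6.12% were at least 2-fold lower and 6.56% at least 2-fold higher, with no replicate check. The share of pathway rows that was lower, 10.8%, is close to the share of all genes and rests on 4 genes, so the counts are no result for the pathway. *Inhba*, *Inhbb*, *Bmp2*, *Bmp4* and *Gdf10* passed the level only through CTRL and so had to be lower in IR12 as deposited, while *Tgfbr2* and *Acvrl1* passed only through IR12 and had to be higher. The median log2 ratio was -0.11 over the 37 rows and 0.02 over all 13599 genes. On the TPM scale, where FPKM is divided by its sum in each library, the median of all genes moved to 0.59, and 3 members were then at least 2-fold higher (*Bmp15*, *Id1* and *Smad3*; 20.7% of all genes) and 1 at least 2-fold lower (*Bmpr1b*; 3.21% of all genes). With a pseudocount of 0.1, 1 member was higher and 9 were lower, where 8.59% and 8.65% of all genes were. A 1.5-fold limit gave 1 and 10 members, where it gave 14.8% and 13.7% of all genes. Relative to the median of all genes on each scale, 33 of the 37 rows kept their side of it on every scale computed. Centring cannot move a row across this median, and the other sums shift all genes alike before the pseudocount. On those scales most rows therefore had to keep their side.

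**Figure D2:**
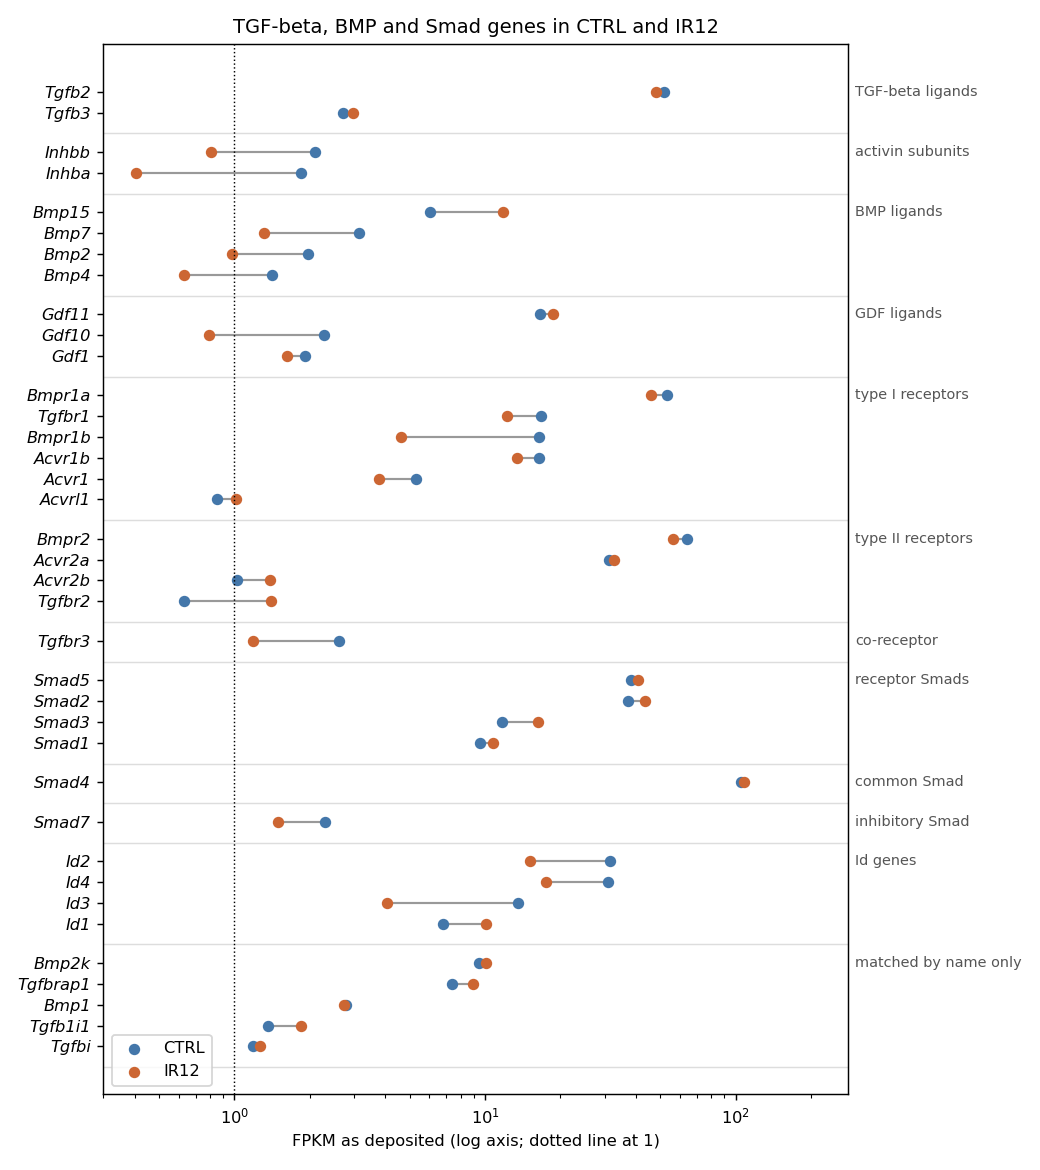
FPKM (log axis) of the 37 detected TGF-beta, BMP and Smad rows in CTRL (blue) and IR12 (orange), ordered by role, with a grey line joining the values of a gene. *Smad4* is highest with 105 and 108, and *Bmpr1b*, *Id3* and *Inhba* show wide gaps towards lower values in IR12.

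Among the ligands, *Tgfb2* was by far the most abundant and differed little as deposited, while the activin subunits and the detected BMPs other than *Bmp15* were low. The direction of *Inhba*, *Inhbb*, *Bmp2* and *Bmp4* is set by the level they had to pass and is no result. *Tgfb2* had FPKM 52.0 in CTRL against 47.9 in IR12 (log2 ratio -0.11). *Tgfb3* had 2.71 and 2.97, and *Tgfb1*, the isoform best known from platelets and immune cells, was below 1 in both libraries with 0.636 and 0.667. On the TPM scale *Tgfb2* was at 0.52, where the median of all genes was 0.59. Less that median, *Tgfb2* was at -0.14 as deposited and -0.07 on the TPM scale. The order of the isoforms, *Tgfb2* over *Tgfb3* over *Tgfb1*, was the same in both libraries. The deposited ratios of the isoforms lay within the middle 50% of all genes, which ran from -0.32 to 0.36.

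*Inhba*, which encodes the subunit of activin A (ENSRNOG00000014320, rn6, chromosome 17, 51898217 to 51912496), had FPKM 1.85 in CTRL against 0.404 in IR12 (log2 ratio -1.02). In reads this is 22.4 per kilobase in CTRL and 8.34 in IR12. These reads give the level alone, since the direction of *Inhba* is set by the level it had to pass. *Inhbb*, the subunit of activin B, had 2.09 and 0.808, a log2 ratio of -0.77. *Inhbc* and *Inhbe*, which are known from liver, were listed at 0 in both libraries.

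*Bmp7*, a BMP needed for eye development, had FPKM 3.13 in CTRL against 1.31 in IR12 (log2 ratio -0.84). *Bmp2* had 1.97 and 0.978, and *Bmp4*, which marks the dorsal side of the developing retina, had 1.41 and 0.631. Their log2 ratios were -0.59 and -0.56. *Bmp6* was below 1 in both libraries with 0.886 and 0.403, also lower in IR12. None of these BMPs was 2-fold lower on this scale, but with a pseudocount of 0.1 in place of 1 the log2 ratio of *Bmp7* was -1.19 and that of *Bmp4* was -1.05. On the TPM scale *Bmp7* was at -0.39, *Bmp4* at -0.23 and *Bmp2* at -0.20. By the plain ratio of FPKM as deposited, *Bmp7*, *Bmp2*, *Bmp4* and *Bmp6* were between 0.419 and 0.495 of their level in CTRL. Of these only *Bmp7* passed the level in both libraries, so their shared direction is no result. By the same ratio *Bmp3* was at 0.934 and *Bmp15* at 1.96. *Bmp15*, known as an oocyte factor, went the other way with 6.04 and 11.8. Its log2 ratio of 0.86 was the highest of the detected rows with a pseudocount of 1. With 0.1 that of *Tgfbr2* was higher, at 1.04 against 0.96. *Bmp3* was below 1 with 0.541 and 0.506, and *Bmp5* was listed at 0 in CTRL and 0.0251 in IR12. *Bmp8a*, *Bmp8b* and *Bmp10* were listed at 0 in both.

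*Gdf11*, known to control the timing of retinal neuron production, was the second most abundant ligand and differed little as deposited, with 16.6 and 18.7. *Gdf10* had 2.28 in CTRL against 0.794 in IR12 (log2 ratio -0.87), the value nearest to the 2-fold limit without reaching it. *Gdf1* had 1.91 and 1.62. *Gdf15*, a ligand induced by cell stress in many tissues, was at 0 in CTRL and at 0.482 in IR12, equal to 9.95 reads per kilobase, where 3 reads in 1 kilobase of CTRL would be 0.248. *Gdf2*, *Gdf3*, *Gdf5*, *Gdf6*, *Gdf7* and *Gdf9* were at most 0.373 in both libraries. Over the 11 detected ligands, 8 were lower in IR12 (72.7%, against 48.2% of all genes), and the median log2 ratio of the 11 was -0.56. This count and this median rest on low genes, since 5 of the 11 passed the level only through CTRL and had to be lower. With FPKM of at least 5 in at least 1 library the ligand median was 0.16, the value of *Gdf11*. Of the ligands only *Tgfb2*, *Gdf11* and *Bmp15* reached that level.

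Among the receptors, *Bmpr1b* stood apart, and the rest of the abundant receptors were within 1.5-fold. *Bmpr1b*, a type I receptor for BMPs and GDFs (ENSRNOG00000016289, rn6, chromosome 2, 247403920 to 247446882), had FPKM 16.5 in CTRL against 4.61 in IR12 (log2 ratio -1.64), the lowest of the 37 rows with a pseudocount of 1. It was at least 2-fold lower on every scale computed, with a value of -1.05 on the TPM scale. *Bmpr1a*, the other BMP type I receptor, had 53.1 and 46.1, a log2 ratio of -0.20. The FPKM of *Bmpr1b* was therefore 31.0% of that of *Bmpr1a* in CTRL, and this share was 3.10 times lower in IR12, a comparison within each library that no scaling between libraries can move.

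*Tgfbr1*, the type I receptor for TGF-beta, had 16.8 in CTRL and 12.3 in IR12, and its second listed locus was at 0 in both. *Acvr1b*, the activin type I receptor, had 16.4 and 13.4, and *Acvr1* had 5.29 and 3.77. Their log2 ratios were between -0.42 and -0.27. *Acvrl1*, a receptor of endothelial cells, was near 1 with 0.851 and 1.01, and *Acvr1c* was below 1 with 0.501 and 0.162.

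Of the type II receptors, *Bmpr2* was the most abundant with 64.2 in CTRL and 56.3 in IR12, followed by *Acvr2a* with 31.3 and 32.8. *Tgfbr2*, the type II receptor that TGF-beta itself needs, was scarce and had the highest log2 ratio of the receptors, with 0.628 and 1.40, a log2 ratio of 0.56. It passed the level only through IR12, so its direction is no result. In reads *Tgfbr2* had 7.60 per kilobase in CTRL and 28.9 in IR12. With a pseudocount of 0.1 its log2 ratio was 1.04. *Acvr2b* had 1.02 and 1.39. The co-receptor *Tgfbr3*, betaglycan, which presents TGF-beta2 to its receptors, had 2.61 in CTRL against 1.19 in IR12 (log2 ratio -0.72). *Tgfbr3l* was listed at 0 in CTRL and 0.165 in IR12. The median log2 ratio over the 11 detected receptor rows was -0.20 as deposited and 0.41 on the TPM scale, which lifts all genes. *Tgfbr1*, *Acvr1*, *Acvr1b*, *Bmpr1a* and *Bmpr2* were higher in IR12 on that scale. Less the median of all genes, the receptor median was -0.22 as deposited and -0.18 on the TPM scale. The receptors just named lay below the median of all genes on both scales.

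No Smad reached 2-fold as deposited, and *Smad3* did on the TPM scale (1.04). *Smad4*, the partner of all receptor-regulated Smads, was the most abundant of the 58 rows with 105 in CTRL and 108 in IR12. Among genes at or above FPKM 1 its percentile was 93.0 in CTRL and 92.9 in IR12. The study reported that a circular RNA of *Smad4* made up a smaller share, relative to linear RNA, in IR12 than in CTRL. Gene FPKM does not separate circular from linear RNA. *Smad5* had 38.1 and 40.9, *Smad2* had 37.1 and 43.6, and *Smad1* had 9.55 and 10.7, with log2 ratios from 0.10 to 0.23. *Smad3* had 11.7 in CTRL against 16.3 in IR12 (log2 ratio 0.45), the highest of the Smads. *Smad9* was listed at 0 in both libraries.

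The inhibitory Smads, which are induced by the pathway and feed back on its receptors, were scarce. *Smad7* had 2.30 in CTRL against 1.49 in IR12 (log2 ratio -0.40), and *Smad6* had 0.278 and 0.195. In reads *Smad7* had 27.8 and 30.9 per kilobase. All 5 detected receptor-regulated and common Smads were thus slightly higher and the 1 detected inhibitory Smad lower as deposited. With FPKM scaled to the same sum without small non-coding RNAs, *Smad4* was at -0.06, where the median of all genes was -0.07. *Smad7* was at 0.02 on the TPM scale, where that median was 0.59. On every scale computed, *Smad4* lay just above the median of all genes and *Smad7* below it. As stated above, most rows had to keep their side of that median on these scales. The median log2 ratio of the 6 detected Smads was 0.13.

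**Figure D3:**
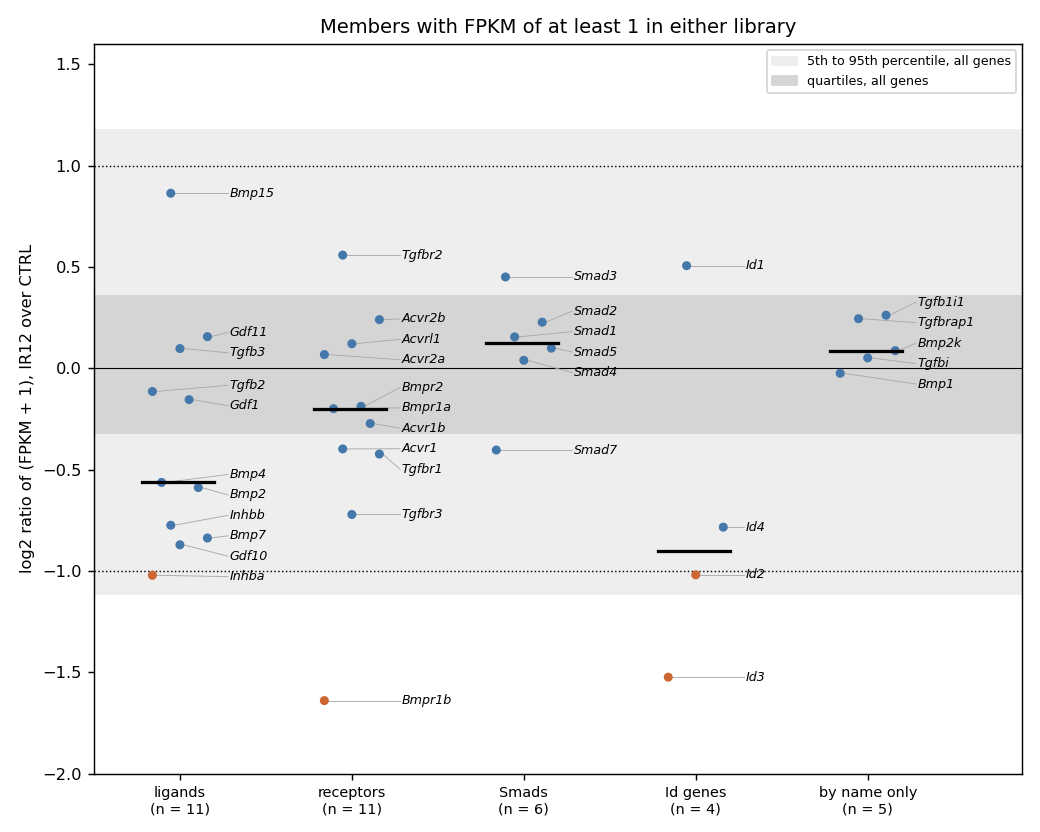
Log2 ratio of (FPKM + 1), IR12 over CTRL, of the 37 detected rows by class (orange for at least 2-fold, dotted lines at 2-fold, black bar for the median, grey bands for all genes). Smads lie between -0.40 and 0.45, ligands have a median of -0.56 and Id genes of -0.90, with *Id1* on the other side at 0.51.

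The 4 Id genes did not share 1 direction: *Id2*, *Id3* and *Id4* were lower in IR12 and *Id1* was higher. *Id3* (ENSRNOG00000026124, rn6, chromosome 5, 154489590 to 154491223) had FPKM 13.6 in CTRL against 4.07 in IR12 (log2 ratio -1.52). *Id2* (ENSRNOG00000007237, chromosome 6, 44348501 to 44363915) had 31.6 and 15.1, a log2 ratio of -1.02. *Id4* (ENSRNOG00000016099, chromosome 17, 16692557 to 16695126) had 30.9 and 17.5, a log2 ratio of -0.78. *Id1* (ENSRNOG00000021750, chromosome 3, 148215540 to 148216718) had 6.79 and 10.1, a log2 ratio of 0.51.

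In CTRL *Id3* had the higher FPKM of the pair *Id3* and *Id1*, and in IR12 *Id1* had the higher one, an exchange of order that no scaling between the libraries can produce or remove. *Id1* rested on 82.1 reads per kilobase in CTRL and 208 in IR12, and *Id3* on 164 and 84.0. On the TPM scale *Id3*, *Id2* and *Id4* were still lower in IR12 (-0.95, -0.40 and -0.16), and *Id1* was at 1.07. *Hes1*, a helix-loop-helix repressor that is a target of Notch and also of BMP, had 17.1 and 4.10, a log2 ratio of -1.83.

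The promoter windows of the Id genes are shown because these genes are the pathway's best known direct targets and differed in direction. Each runs from 250 bases before to 50 bases after the start of the gene in RefSeq on GRCr8, and was matched by symbol (47 of the 57 symbols have such a window). The windows lie at chr3:161671314-161671613 on the plus strand for *Id1*, chr6:47470946-47471245 on the minus strand for *Id2*, chr5:153656041-153656340 on the plus strand for *Id3* and chr17:16598244-16598543 on the minus strand for *Id4*. Capitals mark GTCT, the short Smad-binding box, or its reverse complement AGAC, and GGCGCC, a GC-rich element of BMP-responsive genes that reads the same on both strands. The motifs do not overlap each other.
Id1: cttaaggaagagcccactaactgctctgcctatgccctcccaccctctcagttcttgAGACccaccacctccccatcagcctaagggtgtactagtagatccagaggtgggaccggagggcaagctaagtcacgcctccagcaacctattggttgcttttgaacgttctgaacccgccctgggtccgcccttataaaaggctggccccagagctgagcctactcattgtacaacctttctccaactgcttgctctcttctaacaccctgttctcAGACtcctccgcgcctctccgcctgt
Id2: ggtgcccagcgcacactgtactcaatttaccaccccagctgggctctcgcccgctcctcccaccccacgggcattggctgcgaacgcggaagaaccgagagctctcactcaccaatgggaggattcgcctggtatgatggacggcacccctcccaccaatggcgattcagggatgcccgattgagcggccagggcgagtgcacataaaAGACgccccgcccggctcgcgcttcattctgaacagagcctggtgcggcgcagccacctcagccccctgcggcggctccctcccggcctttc
Id3: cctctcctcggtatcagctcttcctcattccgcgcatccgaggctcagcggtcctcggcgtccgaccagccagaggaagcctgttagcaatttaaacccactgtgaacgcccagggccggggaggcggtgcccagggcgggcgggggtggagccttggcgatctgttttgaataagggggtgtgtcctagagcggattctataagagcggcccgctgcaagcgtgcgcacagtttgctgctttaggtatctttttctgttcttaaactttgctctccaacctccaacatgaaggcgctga
Id4: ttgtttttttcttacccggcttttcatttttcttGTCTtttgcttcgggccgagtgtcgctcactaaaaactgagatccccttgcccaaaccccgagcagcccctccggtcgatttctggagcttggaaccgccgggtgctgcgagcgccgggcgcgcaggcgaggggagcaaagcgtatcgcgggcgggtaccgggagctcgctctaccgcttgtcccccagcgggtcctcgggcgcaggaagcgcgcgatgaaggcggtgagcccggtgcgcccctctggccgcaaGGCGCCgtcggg

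GTCT was found at 2 positions in the *Id1* window, at 1 in *Id2*, at 0 in *Id3* and at 1 in *Id4*. Of the 33469 RefSeq windows of this length, 88.8% held at least 1 match, and the median was 2. GGCGCC was found once, in *Id4*, 38 bases after the start, and in 11.0% of all windows. The palindrome GTCTAGAC was in none of the 4 windows and in 0.197% of all windows. A match is a run of letters and not a bound site, and the window leaves out more distant enhancers.

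The 5 rows matched by the start of their symbol alone are not ligands, receptors or Smads, and none reached 2-fold. *Bmp1*, a metalloproteinase that trims procollagen and frees ligands from their antagonists, had 2.79 in CTRL and 2.72 in IR12. *Tgfbi*, a matrix protein induced by TGF-beta, had 1.18 and 1.26. *Bmp2k*, a kinase, had 9.45 and 10.1, *Tgfbrap1*, an adaptor of receptor traffic, had 7.38 and 8.93, and *Tgfb1i1*, a focal adhesion protein, had 1.36 and 1.83. Their log2 ratios ran from -0.02 to 0.26.

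Beyond the named families, 101 other genes of the pathway were examined from lists of antagonists, activators, accessory receptors, regulators and targets, and 66 of them were detected. Of these 66 genes, 11 were at least 2-fold higher and 10 at least 2-fold lower in IR12 (16.7% and 15.2%), against 6.56% and 6.12% of all genes. Among them *Fst*, *Eng*, *Junb*, *Cyr61* and *Runx2* passed the level only through IR12 and had to be higher, and *Sostdc1* and *Ltbp2* passed only through CTRL and had to be lower, so the direction of these genes is no result in the lists below. The median log2 ratio of the 66 was 0.02, equal to that of all genes. The lists are hand-picked, so the shares describe these lists alone.

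Of 11 detected antagonists, which bind ligands outside the cell, 4 were at least 2-fold lower and 1 higher (36.4% and 9.09%). Of all genes, 6.12% were lower and 6.56% higher. The direction of *Sostdc1* among the lower genes, and that of *Fst*, was set by the level they had to pass. *Nbl1*, a BMP antagonist of the DAN family, had FPKM 10.2 in CTRL against 1.91 in IR12 (log2 ratio -1.95). *Crim1*, a membrane protein that tethers BMPs, had 12.5 and 3.83, *Sostdc1* had 2.41 and 0.365, and *Chrdl1*, a chordin-like BMP antagonist, had 7.76 and 2.81. *Fst*, follistatin, which neutralises activin, had 0.0726 and 1.49, a log2 ratio of 1.21. It passed the level only through IR12 and had to be higher. The CTRL value of *Fst* equals 0.879 reads per kilobase and the IR12 value 30.7. The most abundant genes of the list, *Twsg1* and *Fstl1*, had 32.4 and 23.8, and 25.8 and 13.0. The median log2 ratio over all 11 was -0.66. On the TPM scale *Nbl1* alone of the lower genes stayed at least 2-fold lower (-1.40), with *Crim1* at -0.92, *Sostdc1* at -0.95 and *Chrdl1* at -0.66.

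Of 13 detected genes that hold or activate latent ligand in the matrix, 2 were at least 2-fold lower and 2 higher (15.4% each). Of all genes, 6.12% were lower and 6.56% higher. *Fbn1*, fibrillin-1, which anchors latent TGF-beta in microfibrils, had 33.8 in CTRL against 5.64 in IR12 (log2 ratio -2.39). *Ltbp2*, of the latent TGF-beta binding protein family, had 6.05 and 0.489, a log2 ratio of -2.24. *Thbs1*, thrombospondin-1, which activates latent TGF-beta, had 2.24 and 9.62, a log2 ratio of 1.71. *Mmp14*, a membrane metalloproteinase, had 9.26 and 19.9, a log2 ratio of 1.02 that was 0.93 with the sum taken without small non-coding RNAs. *Htra1* and *Itgav*, the most abundant of the list, had 60.2 and 49.7, and 40.9 and 46.4. *Fbn1* and *Ltbp2* proteins are also known from the zonule fibres that hold the lens, and all 11 lens markers were lower too. The part of lens tissue in these values was not tested.

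**Figure D4:**
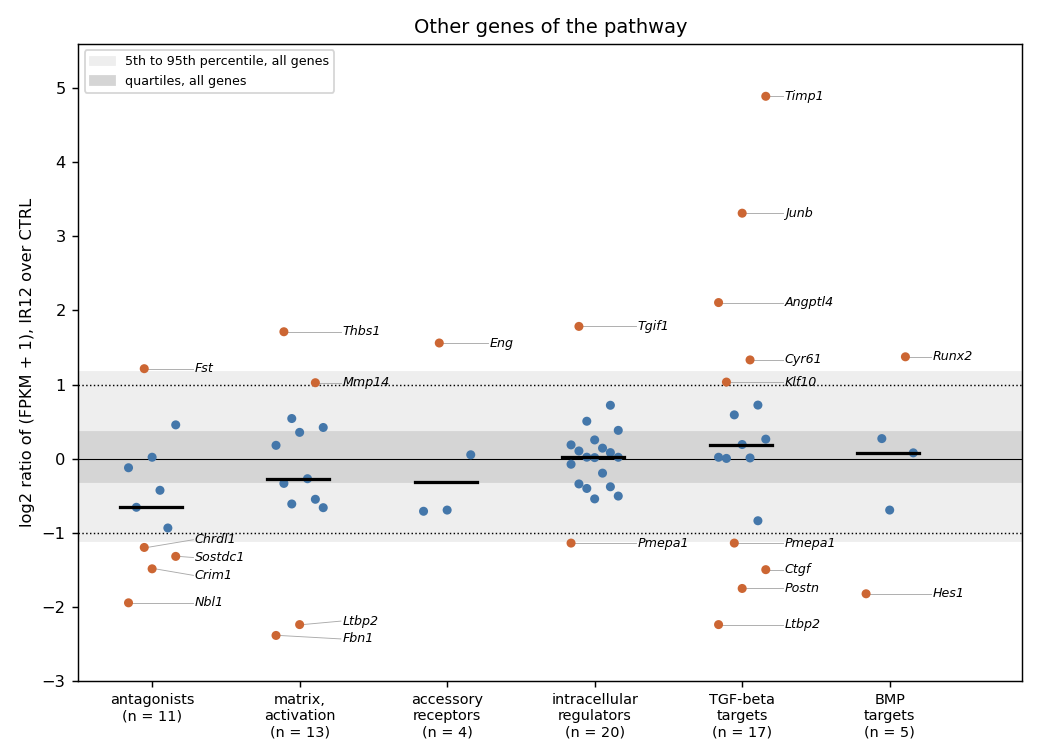
Log2 ratio of (FPKM + 1), IR12 over CTRL, of the other detected pathway genes by list, with genes at least 2-fold apart in orange and named, and grey bands for all genes. TGF-beta targets hold both the highest values, *Timp1* at 4.89 and *Junb* at 3.31, and low ones such as *Postn* at -1.75 (*Ltbp2*, *Pmepa1*, *Skil* and *Bambi* stand in 2 lists each).

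Of 4 detected accessory receptors, *Eng*, endoglin, a co-receptor of endothelial cells, was at least 2-fold higher (25%, against 6.56% of all genes). *Eng* had 0.530 in CTRL against 3.52 in IR12 (log2 ratio 1.56). The endothelial marker list (led by *Kdr*) had a summed FPKM of 133 in CTRL against 113 in IR12, with 5 of 8 genes higher. *Neo1* and *Rgmb* had 51.6 and 31.1, and 7.38 and 7.68. Of 20 detected intracellular regulators, 1 was higher and 1 lower by 2-fold (5% each), close to the 6.56% and 6.12% of all genes. *Tgif1*, a Smad corepressor, had 2.96 and 12.7, a log2 ratio of 1.79. *Pmepa1*, a TGF-beta-induced protein that limits Smad activation, had 11.5 and 4.65, a log2 ratio of -1.14. *Usp9x* and *Ppm1a*, the most abundant by the mean of both libraries, had 146 and 127, and 99.8 and 101.

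Known TGF-beta targets gave no single direction. Of 17 detected targets outside the named families, 5 were at least 2-fold higher and 4 lower (29.4% and 23.5%). Of all genes, 6.56% were higher and 6.12% lower. *Timp1*, a metalloproteinase inhibitor, had 4.71 in CTRL against 169 in IR12 (log2 ratio 4.89), and *Junb*, an AP-1 factor, had 0.780 and 16.7, a log2 ratio of 3.31. *Angptl4* had 1.42 and 9.45, *Cyr61* had 0.947 and 3.90, and *Klf10* had 3.81 and 8.85, with log2 ratios of 2.11, 1.33 and 1.03. That of *Klf10* was 0.94 with the sum taken without small non-coding RNAs, below 2-fold. These 5 genes also respond to stress, hypoxia or inflammatory signals. The part of TGF-beta in the values of the higher and of the lower targets was not tested.

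Lower in IR12 were *Ltbp2* and *Pmepa1*, given above, *Postn*, a matrix protein, with 28.3 in CTRL and 7.69 in IR12, and *Ctgf*, connective tissue growth factor, with 14.8 and 4.57. The log2 ratios of *Postn* and *Ctgf* were -1.75 and -1.50. On the TPM scale *Ctgf* (-0.92) and *Pmepa1* (-0.57) were no longer 2-fold lower. *Skil*, a Smad-induced corepressor and the most abundant target in CTRL, had 43.0 and 43.5. Of 5 detected BMP targets outside the named families, *Runx2*, a factor of bone formation, was higher with 0.418 and 2.68, a log2 ratio of 1.37, and *Hes1* was lower. Each is 20% of this list, against 6.56% of all genes higher and 6.12% lower. *Hey2* had 6.57 and 6.98.

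**Figure D5:**
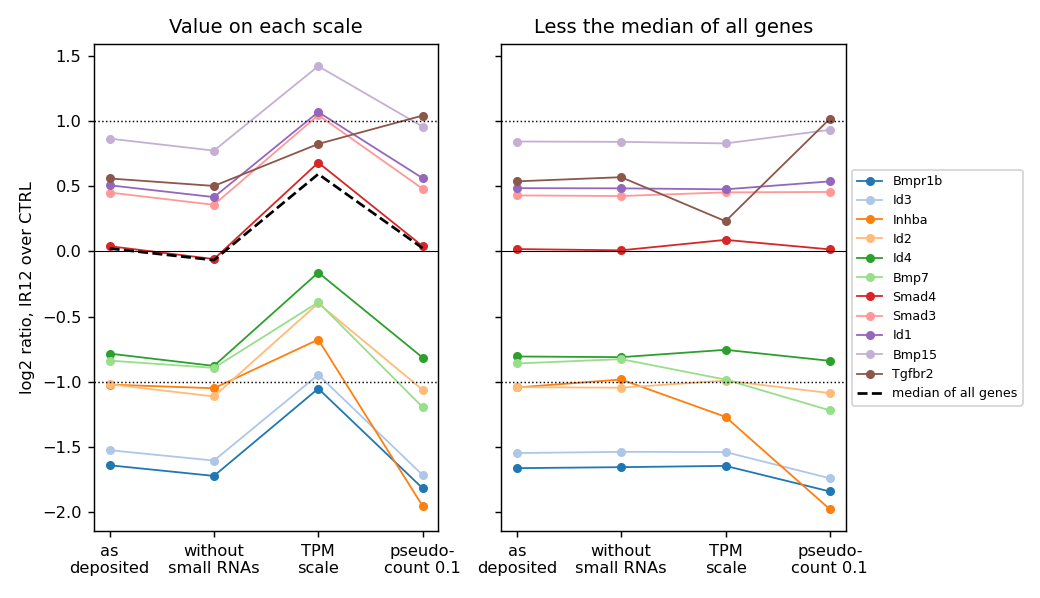
Log2 ratios, IR12 over CTRL, of 11 members on 4 scales (left), with the median of all genes as a dashed line, and the same values less that median (right). The TPM scale lifts all genes, with a median of 0.59, while the order of *Bmpr1b*, *Id3*, *Smad4* and *Id1* is the same on each scale. A shift of all genes alike before the pseudocount leaves little room for a change of order.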

How the data were processed

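Gene-level FPKM was analysed for 1 CTRL and 1 IR12 library. FPKM was deposited by the authors, and the tool that made it is not given in the sources used here. Library kits are named as total RNA and as mRNA, both with rRNA removal. The processing notes of the authors name STAR 2.5.2b, Cuffdiff 2.2.0 and rn6, and the study shortened its reads. The study's instructions name an Ensembl release for a test run, but none is named for the FPKM table. Locus starts count from 0 (1026 of 1034 olfactory loci have lengths divisible by 3) and were raised by 1. The members and lists were chosen with earlier results of these data known, and 1 rod marker and 1 TGF-beta target were taken out of the lists after the results were seen. The counts for rod markers, TGF-beta targets and all other pathway genes describe the lists without those genes. FPKM was used as deposited with a pseudocount of 1, and genes with FPKM of at least 1 in at least 1 library were kept. Small non-coding RNAs, recognised by symbol, make up 67.8% of the FPKM sum in CTRL and 46.0% in IR12. Named were all members, and from each pathway list the genes at least 2-fold apart and the 2 most abundant by mean FPKM. Without replicates no test was made, and intervals were not computed. Reads per kilobase assume that FPKM was scaled to mapped reads alone and cover counting error only. Alternatives tried were centring on the median gene, a pseudocount of 0.1, the TPM scale, the same sum without small non-coding RNAs, other FPKM minimums and a 1.5-fold limit. In a made-up table with counting noise alone, which has no variation between animals, 100 of 100 genes raised and 100 of 100 lowered 4-fold were called, and 0 of 12997 unaltered ones. Python 3.11.15, numpy 2.4.6, pandas 2.3.3 and matplotlib 3.10.9 were used.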

Additional observations from a re-analysis of the deposited data

How the results depend on the processing

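Of 81 alternative values for 11 results, 59 stayed within 1.5 times (counts) or 0.1 (medians of log2 ratios) of the reported value. The medians under centring and under the sum without small non-coding RNAs had to stay, since both shift all genes by less than 0.1. No replicate could be left out. No paired analysis was possible because each condition has 1 library.

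The TPM scale adds 0.65 to the log2 ratio of FPKM before the pseudocount. With small non-coding RNAs left out of the sums, the shift was -0.10, so the shift of the TPM scale rests on these RNAs. On the TPM scale, 3 members were at least 2-fold higher and 1 lower (8.11% and 2.70%). Of the 66 other detected pathway genes, 17 were higher and 5 lower. Of all genes, 2817 were higher and 436 lower (20.7% and 3.21%). The medians reversed in sign to 0.43 for all members and 0.41 for receptors, where that of all genes was 0.59. They moved to -0.20 for ligands, 0.73 for Smads and -0.28 for Id genes. Less the median of all genes, that of all members was -0.14 as deposited and -0.16 on the TPM scale. For receptors it was -0.22 and -0.18. Neither changed side, but the TPM scale shifts all genes alike before the pseudocount, so little change was possible. A pseudocount of 0.1 gave 1 member higher (*Tgfbr2*) and 9 lower, with a ligand median of -0.94, and it called 8.59% of all genes higher and 8.65% lower. *Tgfbr2* passed the level only through IR12, and *Bmp4*, *Gdf10*, *Inhba* and *Inhbb* of the lower members only through CTRL. Their directions were thus set by the level and are no result. The ligand median rests on the same genes and on *Bmp2*, which also passed only through CTRL. With FPKM of at least 5 in at least 1 library the medians reversed in sign to 0.0396 for all members and 0.16 for ligands. Fewer low genes are kept there (21 members), and the ligand value is that of *Gdf11*. The median of all genes was then 0.0508, so that of all members stayed just below it (-0.0111 less the median). At this minimum 7 other pathway genes were higher and 9 lower, where 6.37% of all genes were higher and 6.07% lower. With no minimum FPKM the ligand median was -0.0711. A 1.5-fold limit gave 1 member higher and 10 lower, and 2007 of all genes higher and 1861 lower (14.8% and 13.7%). Centring and the sum without small non-coding RNAs shift all genes by less than 0.1, so no member ratio could move further. Values near an FPKM of 1 rest on about 12.1 reads per kilobase in CTRL and are the least certain.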

Other observations

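The TGF-beta superfamily has ligands whose names the rule does not match, and most of their values were looked up after the main results were seen. *Mstn*, myostatin, a GDF-type ligand that signals through activin receptors, had FPKM 5.26 in CTRL against 2.37 in IR12 (log2 ratio -0.89). *Inha*, the alpha subunit that turns activin into inhibin, was in the antagonist list and had 1.64 and 1.67. *Nodal*, *Lefty1* and *Amh* were listed at 0 in both libraries.

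Some members share their listed locus with another gene. *Gdf1* shares it with *Cers1*, listed at 0.00307 in CTRL and 0.00308 in IR12, and *Acvr2b* with a SNORD113 gene listed at 57.4 in CTRL and 0 in IR12. *Acvr1b* shares its locus with *Grasp*, listed at 0.443 and 0.411. How reads were divided within such loci was not tested. *Bmp15* shares its locus with no other listed gene.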
